A study of Mus musculus with 4 samples.

Results

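The CXC chemokine ligands Cxcl1, Cxcl2, Cxcl3, Cxcl5, Cxcl9, Cxcl10, Cxcl12, Cxcl14 and Cxcl16 and the receptor Cxcr4 were followed through injury-induced bone formation in muscle. They were found by gene symbol, and all 10 were among the 32285 features measured. The data were spatial transcriptomes of fresh frozen tibial muscle, in which RNA is captured on an array of barcoded spots that each cover several cells. Of the 4 sections, that of day 0 was uninjured, and the others were taken 1, 3 or 7 days after an injury that the study made with cardiotoxin, a snake venom toxin that destroys myofibres. All groups were Nse-Bmp4 mice on the C57BL/6 strain, aged 6 to 8 weeks. They carry a murine Bmp4 cDNA behind the rat neuron-specific enolase promoter, so the day 0 muscle was transgenic as well and muscle without the transgene was not analysed here. The labels state that 3 tibial muscles were mixed for a group, and how these map onto a section is not given in the sources used here. There was 1 section per day, so the spread among animals is unknown and no test was made. All intervals below are 95% counting intervals and cover counting error only.

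CXC chemokines are small secreted proteins that steer leukocytes through G protein-coupled receptors. Cxcl1, Cxcl2, Cxcl3 and Cxcl5 carry the ELR motif and draw neutrophils through Cxcr2, while Cxcl9 and Cxcl10 are induced by interferons and draw T cells and NK cells through Cxcr3. Cxcl12 is made by stromal and endothelial cells in resting tissue and signals through Cxcr4, a receptor of many leukocytes and progenitor cells, and the atypical receptor Ackr3 scavenges it. Cxcl14 is a homeostatic chemokine whose receptor is not settled, and Cxcl16 is made as a transmembrane protein on macrophages and dendritic cells and binds Cxcr6.

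The sections held from 2107 to 3032 spots and from 16777832 (day 1) to 56113066 (day 3) unique molecular identifiers (UMIs), the unit in which captured RNA molecules were counted. Day 1 was the shallowest, with a median of 6322 UMIs per spot against 12119.5 to 21029 in the others. All 9 adult myofibre markers were counted in every section, and their share of UMIs was 21.1% on day 0, 10.6% on day 1, 6.66% on day 3 and 12.4% on day 7. Levels are given as UMIs per 1000000 UMIs of a section (CPM), so this fall in muscle RNA raises the CPM of other genes. Scaling with edgeR's TMM factors moved every log2 ratio to day 0 by -0.19 on day 1, -0.55 on day 3 and -0.61 on day 7, and DESeq2's size factors did so by -0.19, -0.56 and -0.64. Where a direction turns under these scalings, that is stated beside it. Fewer cells of a type and less RNA per cell cannot be told apart in such sums. The sections shared 1341 array barcodes of 4078 in all, which are the fixed barcodes of the arrays and not shared cells.

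On the GRCm38 assembly, Cxcl5, Cxcl3, Cxcl1 and Cxcl2 lay together with Pf4 and Ppbp within 147 kb of chromosome 5 (90759298 to 90905938), and Cxcl9 and Cxcl10 lay further along the same chromosome (92321331 to 92348889). The other members were scattered, with Cxcl12 on chromosome 6, Cxcl14 on chromosome 13, Cxcl16 on chromosome 11 and Cxcr4 on chromosome 1. The stretches just upstream of the annotated starts are shown for the clustered ligands and for Cxcl10, because these genes were close to absent on day 0 and high after injury. They were taken from a set of RefSeq promoter sequences (GRCm38.p6) that held 8 of the 10 members, all but Cxcl5 and Cxcl16. Capitals mark matches to the NF-kB consensus on either strand, which overlap each other at 1 place in each gene, and in Cxcl10 also a match to the interferon-stimulated response element, searched as GAAA and GAAA with 2 bases of any kind between them.

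Cxcl1 (chr5:90891095-90891244, plus strand): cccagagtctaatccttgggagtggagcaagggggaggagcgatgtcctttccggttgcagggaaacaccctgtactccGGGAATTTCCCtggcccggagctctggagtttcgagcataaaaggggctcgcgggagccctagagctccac
Cxcl2 (chr5:90903749-90903898, plus strand): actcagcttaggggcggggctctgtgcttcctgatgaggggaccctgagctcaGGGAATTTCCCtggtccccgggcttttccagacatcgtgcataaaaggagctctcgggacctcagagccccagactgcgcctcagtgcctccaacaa
Cxcl3 (chr5:90785951-90786100, plus strand): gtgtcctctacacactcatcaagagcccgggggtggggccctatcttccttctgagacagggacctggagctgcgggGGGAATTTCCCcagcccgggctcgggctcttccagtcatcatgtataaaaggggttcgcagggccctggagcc
Cxcl10 (chr5:92348890-92349139, minus strand): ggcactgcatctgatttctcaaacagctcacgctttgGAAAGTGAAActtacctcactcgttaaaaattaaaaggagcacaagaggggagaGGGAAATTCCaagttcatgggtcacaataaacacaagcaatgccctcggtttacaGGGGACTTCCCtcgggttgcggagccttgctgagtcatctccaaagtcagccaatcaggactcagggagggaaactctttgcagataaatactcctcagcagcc

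The same 11 letters were found 71 to 61 bases before the start of Cxcl1, 97 to 87 bases before that of Cxcl2 and 73 to 63 bases before that of Cxcl3. In Cxcl10, NF-kB matches lay 159 to 150 and 104 to 94 bases before the start, and the response element 213 to 204 bases before it. Within the 250 bases upstream of the start, Cxcl10 and the neighbours Cxcl1, Cxcl2 and Cxcl3, whose shared letters are not separate cases, held an NF-kB match. That is 4 of the 8 members, against 7.25% of 32851 promoters of the same length. For the response element it was Cxcl10 and Cxcl14, against 2.98% of promoters, and for the interferon gamma element, TTC and GAA with 3 bases between them, it was Cxcl14, against 7.02%. No match was found for Cxcl9, Cxcl12 or Cxcr4 in this window. A match is a description of letters and not a site of binding.

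After injury most members were above day 0, but in different sections. A gene was called where its CPM differed at least 2-fold, with counts under 3 UMIs entered at 3, among genes with at least 10 UMIs over both sections. On day 1, 5 of 10 members were higher (Cxcl1, Cxcl2, Cxcl3, Cxcl5 and Cxcl10), against 17.4% of all genes tested, and 2 were lower (Cxcl9 and Cxcl14), against 11.4%. On day 3, 8 of 10 were higher, all but Cxcl9 and Cxcl12, against 33.3% of genes, and none was lower, against 8.26%. Under TMM factors Cxcl14 was under 2-fold and 7 were higher, against 19.8% of genes. On day 7, 6 of the 8 with enough UMIs were higher (Cxcl1, Cxcl5, Cxcl9, Cxcl10, Cxcl16 and Cxcr4), against 32.7%, with none lower, against 2.13%. Cxcl2 and Cxcl3 had too few UMIs on day 7, and under TMM factors Cxcl1 was under 2-fold there and 5 were higher, against 15.7%. Past 4-fold, 3 members were higher on day 7 (Cxcl5, Cxcl10 and Cxcl16), against 9.89%, and none was lower on day 1, against 2.58%. The median log2 ratio of the members to day 0 was 2.20 on day 1, 3.56 on day 3 and 1.78 on day 7, beside 0.15, 0.58 and 0.65 over all genes tested. These 3 comparisons share the day 0 section. Between day 7 and day 3, 6 members were lower (Cxcl1, Cxcl2, Cxcl3, Cxcl5, Cxcl16 and Cxcr4), against 11.8% of genes, and Cxcl9 was higher, against 16.1%.

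**Figure D1:**
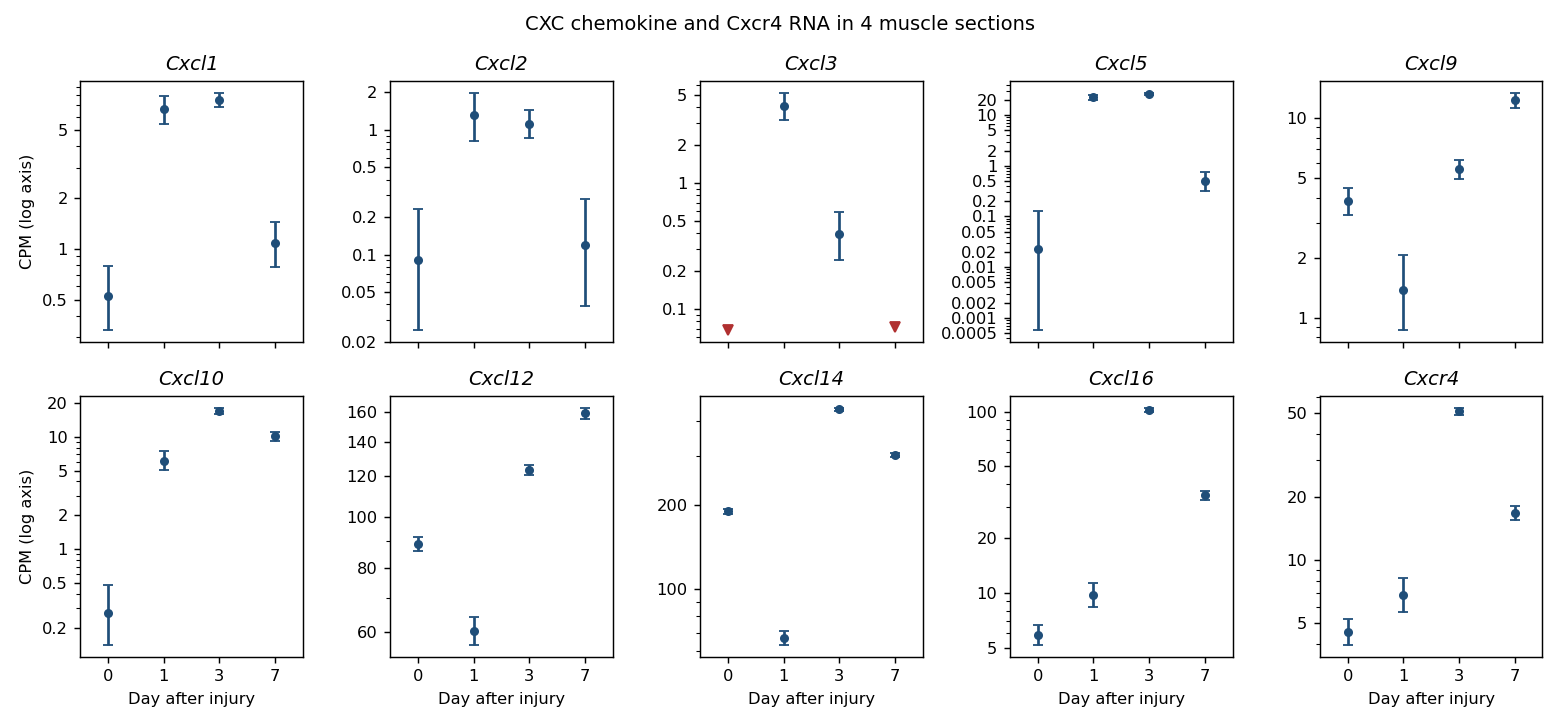
CPM of each member (log axis, a separate scale per gene) in the day 0, 1, 3 and 7 sections, 1 section per day; points are section sums, bars are exact 95% Poisson intervals, and red triangles mark the level of 3 UMIs where none was counted. Cxcl1, Cxcl2, Cxcl3 and Cxcl5 are high on days 1 or 3 and low on day 7, Cxcl16 and Cxcr4 peak on day 3, and Cxcl9 is highest on day 7.

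The neutrophil-attracting ligands were high on days 1 and 3, and on day 7 each was far below day 3. Cxcl1, made by stromal cells and macrophages, had 23 UMIs (0.524 CPM) on day 0, 111 (6.62 CPM) on day 1, 422 (7.52 CPM) on day 3 and 45 (1.08 CPM) on day 7. Days 1 and 3 stood well above the other sections, at 12.6-fold (8.00 to 20.7) and 14.3-fold (9.43 to 22.9) the day 0 level. They were not told apart, with a ratio of day 3 to day 1 of 1.14 (0.920 to 1.41) whose direction turned under TMM factors. Day 7 was 2.05-fold (1.22 to 3.55) above day 0. Cxcl5, a product of epithelial and stromal cells, had 1 UMI (0.0228 CPM) on day 0, 377 (22.5 CPM) on day 1, 1461 (26.0 CPM) on day 3 and 21 (0.502 CPM) on day 7. It was close to absent from the uninjured section, so the ratio of day 1 to day 0, 986-fold, had an interval whose lower end was 176-fold. Day 3 was 1.16-fold (1.03 to 1.30) above day 1 by CPM, a direction that turned under TMM factors (log2 ratio -0.15). Day 7 was 51.9-fold (33.8 to 84.0) below day 3 and still 22.0-fold (3.54 to 911) above the 1 UMI of day 0.

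Cxcl2 and Cxcl3, quick products of activated myeloid cells, gave few UMIs. The sequences of Cxcl1, Cxcl2 and Cxcl3 are alike, and reads that fit more than 1 of them may be miscounted. Cxcl2 had 4 UMIs (0.0912 CPM) on day 0, 22 (1.31 CPM) on day 1, 63 (1.12 CPM) on day 3 and 5 (0.120 CPM) on day 7. Days 1 and 3 were both high and not told apart, at a ratio of 0.856 (0.520 to 1.46), and neither were days 7 and 0, at 1.31 (0.282 to 6.61), a direction that turned under TMM and size factors. Day 1 was 14.4-fold (4.88 to 57.4) above day 0. Cxcl3 differed from the other ELR ligands in its timing. It had no UMI on day 0 or day 7, which allows up to 0.0684 and 0.0717 CPM (3 UMIs), and it had 69 (4.11 CPM) on day 1 and 22 (0.392 CPM) on day 3. It was thus at least 60.1-fold higher on day 1 than on day 0, and 10.5-fold (6.41 to 17.8) higher on day 1 than on day 3. Over the same step Cxcl1, Cxcl2 and Cxcl5 were within 2-fold, and Cxcl3 was the only member lower past 2-fold on day 3 than on day 1, against 3.13% of genes.

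To ask where in a section a gene lay, the 10% of spots with the largest share of UMIs from a marker list were set against the other spots of that section. Only spots with at least 2000 UMIs were used, and the ratio of CPM is given. On day 1, 7 of 10 members were over 2-fold higher in neutrophil-rich spots, against 16.9% of all genes. Cxcl3 was highest among the ELR ligands there, at 10.9-fold (6.06 to 19.5), with 25 of 52 UMIs in the neutrophil-rich spots. Cxcl5 was at 5.36-fold (4.24 to 6.76), Cxcl2 at 3.92-fold (1.11 to 11.3) and Cxcl1 at 3.23-fold (1.92 to 5.24). On day 3 only the 4 ELR ligands were over 2-fold higher in neutrophil-rich spots, against 4.67% of genes. Cxcl2 was at 9.19-fold (5.40 to 15.5), Cxcl3 at 8.98-fold (3.47 to 22.7), Cxcl5 at 3.94-fold (3.5 to 4.42) and Cxcl1 at 3.35-fold (2.65 to 4.20). Below 2-fold, Cxcl10, Cxcl12, Cxcl14, Cxcl16 and Cxcr4 lay between 1.18 and 1.80 there, with intervals above 1.

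The 4 ligands parted in spots rich in macrophage markers, where 6 of 10 members were higher on day 1, against 25.1% of genes. On day 1 Cxcl3 was 16.0-fold (8.93 to 28.9) and Cxcl2 10.4-fold (3.80 to 27.5) higher in monocyte/macrophage-rich spots, Cxcl5 was 3.66-fold (2.81 to 4.73) higher, and Cxcl1 was at 1.53-fold (0.739 to 2.87). On day 3 none of the 4 was past 2-fold there, with ratios from 1.21 to 1.55, while 4 other members were (Cxcl9, Cxcl10, Cxcl16 and Cxcr4), against 15.7% of genes. In dendritic cell-rich spots on day 3, however, Cxcl2 was 6.45-fold (3.78 to 10.9) and Cxcl3 8.06-fold (3.17 to 20.5) higher. With Cxcl9 and Cxcl10, 4 of 10 members were higher in these spots, against 10.1% of genes. In spots rich in NF-kB early response genes, such as Nfkbia and Tnfaip3, Cxcl1 was 5.01-fold (3.06 to 7.96) higher on day 1 and 4.45-fold (3.61 to 5.46) on day 3. Cxcl5 was likewise 4.83-fold (3.73 to 6.21) and 4.57-fold (4.09 to 5.10) higher in them. Cxcl3 was 11.3-fold (6.22 to 20.3) higher there on day 1 and 3.32-fold (1.07 to 8.94) on day 3. Cxcl2 was 5.15-fold (1.46 to 14.9) and 6.23-fold (3.62 to 10.6) higher. In all, 7 of 10 members were higher in NF-kB-rich spots on each of these days, against 25.8% of genes on day 1 and 8.21% on day 3. MSC-rich spots were taken with the mesenchymal stromal cell (MSC) markers Pdgfra, Prrx1, Ly6a, Ly6e and Adam12. In MSC-rich spots Cxcl5 was 4.02-fold (3.11 to 5.17) higher on day 1 and 2.61-fold (2.31 to 2.95) on day 3. Cxcl1 was 3.95-fold (2.39 to 6.32) and 2.33-fold (1.83 to 2.94) higher there. The intervals of Cxcl2 and Cxcl3 included 1 on both days. In fibroblast matrix-rich spots Cxcl5 was at 1.85-fold (1.35 to 2.49) on day 1 and 2.61-fold (2.33 to 2.92) on day 3. Cxcl1 was at 1.27-fold (0.614 to 2.39) and 2.07-fold (1.65 to 2.58) in those. In MSC-rich spots 6 of 10 members were higher on day 1, against 29.0% of genes, and 5 of 10 on day 3, against 10.7%. These spots were also richer in macrophage markers, at 2975 against 1383 CPM on day 1 and 13270 against 7246 on day 3. The part of macrophage content was not tested.

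The list-rich spots overlap, so these ratios are not separate measurements. Of the neutrophil-rich spots, 32.6% were also monocyte/macrophage-rich on day 1 and 9.60% on day 3, and macrophage markers were at 3037 CPM in neutrophil-rich spots against 1367 in the rest on day 1. Over whole sections the neutrophil list stood at 2.76 CPM on day 0, 166 on day 1, 80.8 on day 3 and 11.8 on day 7, with 7 of 9 markers above day 0 in each injured section. Its marker Ly6g was at 0 on days 0, 3 and 7, and Ngp on days 1, 3 and 7. The part of neutrophil number in the ligand levels was not tested.

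**Figure D2:**
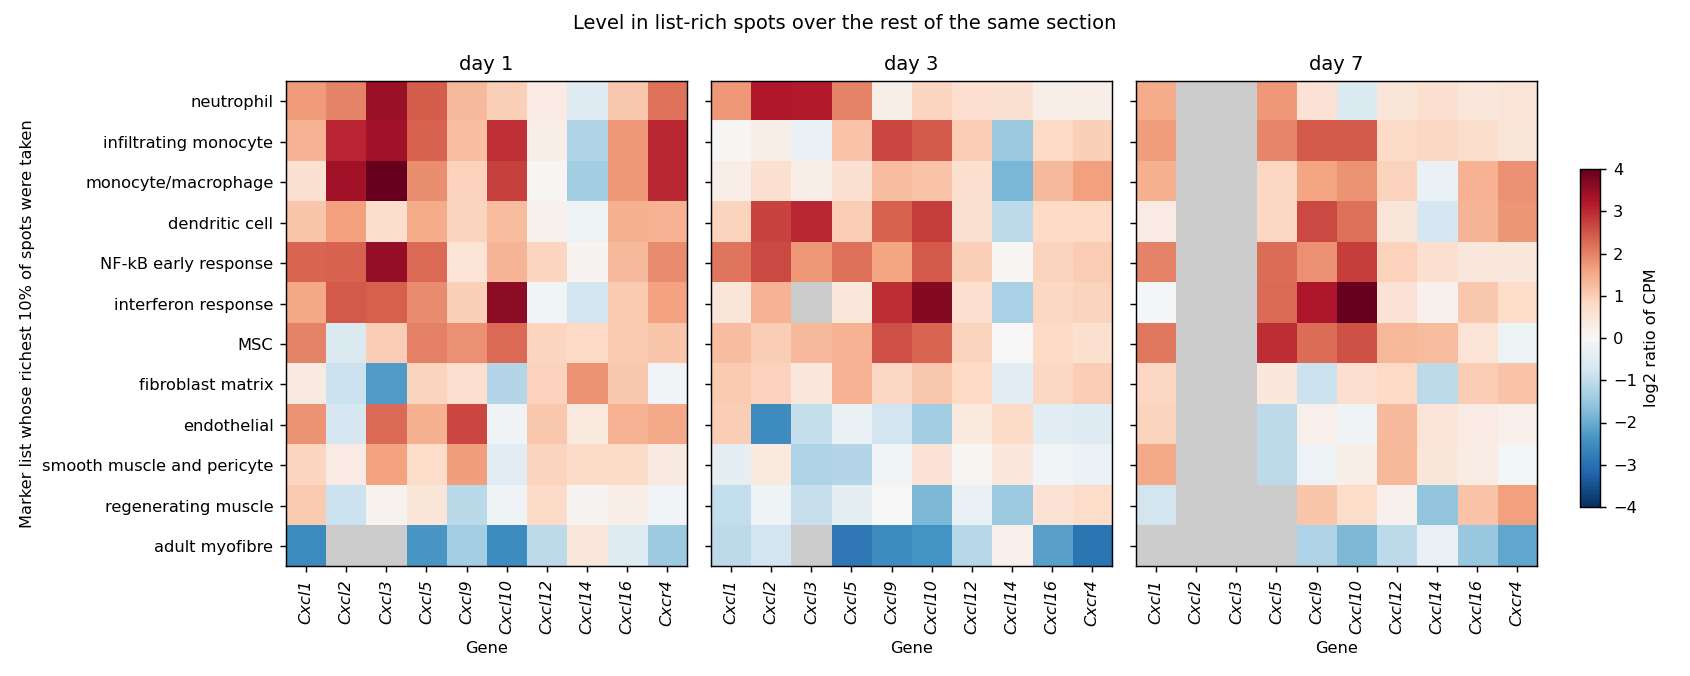
Ratio of CPM (log2 colour scale) of each member in the spots richest in a marker list over the other spots of the same section, on days 1, 3 and 7; grey marks genes with under 10 UMIs or with no UMI on either side. The ELR ligands are red in neutrophil-rich spots, Cxcl9 and Cxcl10 in interferon-rich spots, and Cxcl14 is blue in monocyte/macrophage-rich spots on days 1 and 3.

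The neutrophil receptor and the platelet ligands of the same locus were high early. Cxcr2, the receptor of the ELR ligands, had 2 UMIs on day 0, 84 (5.01 CPM) on day 1, 57 (1.02 CPM) on day 3 and 4 on day 7. It was highest on day 1 and lay in neutrophil-rich spots, at 7.35-fold (4.50 to 11.8) on day 1 and 5.39-fold (2.93 to 9.58) on day 3. Ppbp, a platelet chemokine, went from 2 UMIs on day 0 to 392 (23.4 CPM) on day 1, and had 39 on day 3 and 14 on day 7. Pf4, which platelets and macrophages make, was at 45.1, 571, 479 and 87.0 CPM on days 0, 1, 3 and 7. Pf4 and Ppbp were 5.56-fold (5.31 to 5.82) and 8.29-fold (6.55 to 10.5) higher in monocyte/macrophage-rich spots on day 1.

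The interferon-induced ligands were not alike in time. Cxcl9 had 168 UMIs (3.83 CPM) on day 0, 23 (1.37 CPM) on day 1, 312 (5.56 CPM) on day 3 and 515 (12.3 CPM) on day 7. It was lowest on day 1, where it was 2.79-fold (1.80 to 4.53) below day 0, and highest on day 7, at 3.21-fold (2.70 to 3.85) above day 0. Day 3 was 1.45-fold (1.2 to 1.76) above day 0 by CPM, a direction that turned under both TMM factors (log2 ratio -0.014) and size factors (-0.024). Cxcl10 had 12 UMIs (0.274 CPM) on day 0, 103 (6.14 CPM) on day 1, 949 (16.9 CPM) on day 3 and 421 (10.1 CPM) on day 7. Unlike Cxcl9 it was lowest in the uninjured section, and day 3 was highest, at 61.8-fold (35.2 to 120) the day 0 level. Day 7 was 1.68-fold (1.5 to 1.89) below day 3 and 1.64-fold (1.32 to 2.05) above day 1. On day 1 the counting intervals of the ratios to day 0 lay on opposite sides of 1 for Cxcl9 and Cxcl10.

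Both genes lay in interferon-rich spots once they were high. Cxcl10 was 12.1-fold (7.96 to 18.2) higher in spots rich in interferon response genes, such as Isg15 and Ifit1, on day 1, 12.8-fold (11.2 to 14.6) on day 3 and 16.1-fold (13.2 to 19.8) on day 7. On day 3 these spots held 609 of 949 Cxcl10 UMIs. Cxcl9 was 7.71-fold (6.14 to 9.69) higher on day 3 and 9.42-fold (7.90 to 11.2) on day 7, and at 1.71-fold (1.04 to 2.69) on day 0. No member was on that list. In these spots 3 of 10 members were higher on day 3 (with Cxcl2), against 9.95% of genes, and 4 of 8 on day 7 (with Cxcl5 and Cxcl16), against 7.31%. On day 3 interferon-rich spots were deeper than the rest (median 21062.5 against 15455 UMIs) and richer in macrophage markers (13970 against 7039 CPM), and the part of macrophage content was not tested. On day 7 Cxcl9 was also 9.66-fold (8.08 to 11.5) and Cxcl10 8.53-fold (6.98 to 10.4) higher in the 132 spots with any T cell marker UMI. These spots were deeper than the others, at a median of 20925.5 against 12134.5 UMIs. T cell markers summed to 15 UMIs on day 1, with Cd3e and Cd8a at 0, and to 390 on day 3 and 171 on day 7.

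Cxcl10 lay in fewer spots for its counts than Cxcl9 and the widespread members. On day 3 a single spot held 95 of its 949 UMIs, and the richest 1% of spots held 57.1%. On day 7 a single spot held 102 of 421 UMIs, and the richest 1% held 57.5%. For Cxcl9 the richest 1% of spots held 42.6% on day 3 and 48.0% on day 7, while for Cxcl12, Cxcl14 and Cxcl16 they held from 7.75% to 14.9% on these days. A gene with few UMIs cannot fill many spots, so these shares also follow the counts. With the richest 1% of spots left out of each section, no Cxcl10 UMI was left on day 0. With day 0 entered at 3 UMIs, the log2 ratio of Cxcl10 was 6.73 on day 3 and 5.98 on day 7. These values rest on that floor and not on a measured day 0 level. The log2 ratio of Cxcl9 to day 0 was 0.17 and 1.18. On day 1 no Cxcl9 UMI was left, and with 3 UMIs in its place the log2 ratio was -3.99. For Cxcl2 on day 3, where a single spot held 14 of its 63 UMIs, the log2 ratio was 0.87, under 2-fold, with day 0 entered at 3 UMIs since none was left there.

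**Figure D3:**
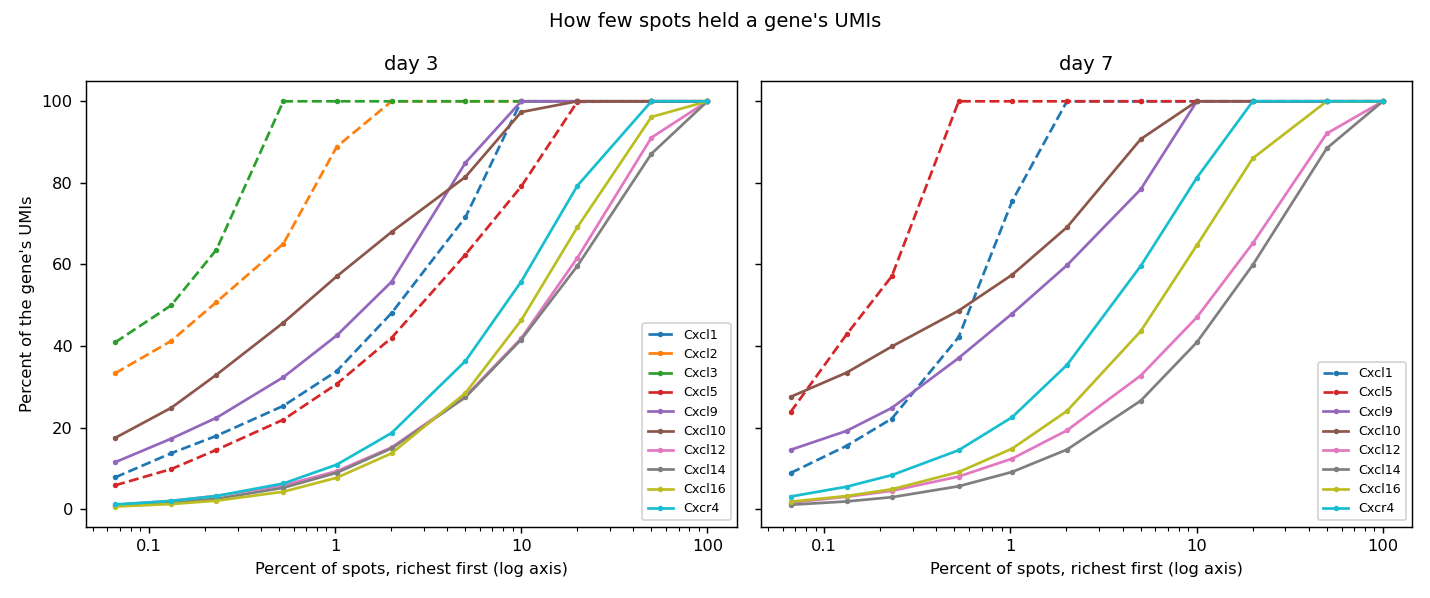
Percent of a gene's UMIs held by the spots richest in that gene, against the percent of spots (log axis), on days 3 and 7; genes with under 10 UMIs in a section are left out, and dashed lines are the ELR ligands. The curve of Cxcl10 reaches 57.1% on day 3 and 57.5% on day 7 within the richest 1% of spots, and the curves of Cxcl12 and Cxcl14 lie furthest right.

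Cxcr3, the receptor of Cxcl9 and Cxcl10 on T and NK cells, had 15 UMIs on day 0, 9 on day 1, 145 (2.58 CPM) on day 3 and 59 on day 7. It was 7.56-fold (4.43 to 13.9) above day 0 on day 3 and 4.13-fold (2.31 to 7.83) on day 7. On day 3 Cxcr3 was 2.36-fold (1.57 to 3.47) higher in interferon-rich spots, and on day 7 3.60-fold (1.89 to 6.53). Spots that held both a UMI of Cxcr3 and of either ligand were fewer than 1 on average in each section after every spot was thinned to 2000 UMIs, so sharing of spots was not measurable.

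Cxcl12, the stromal ligand of Cxcr4, was well counted in every section and stayed within 2-fold of day 0. It had 3906 UMIs (89.0 CPM) on day 0, 1014 (60.4 CPM) on day 1, 6930 (124 CPM) on day 3 and 6640 (159 CPM) on day 7. Day 1 was lowest, at 1.47-fold (1.37 to 1.58) below day 0. Day 3 was 1.39-fold (1.33 to 1.44) above day 0 by CPM, but at log2 ratios of -0.080 under TMM factors and -0.090 under size factors. Day 7 was 1.78-fold (1.71 to 1.86) above day 0 and 2.63-fold (2.46 to 2.81) above day 1, which stayed above 0 on the log2 scale under each scaling. After thinning each spot to 2000 UMIs, 15.5% (13.9 to 17.1) of spots held a Cxcl12 UMI on day 0, 11.6% (10.3 to 13) on day 1, 19.7% (18.3 to 21.2) on day 3 and 23.4% (21.9 to 24.9) on day 7. Without thinning the shares were 70.7%, 27.2%, 70.4% and 67.3%, which also follow depth.

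Cxcl12 was lower in adult myofibre-rich spots than in the rest of every section. So were many genes, since 22.0% of all genes on day 1 and 29.6% on day 3 were lower there past 2-fold. Among the members 6 of 10 were lower on day 1 and 7 of 10 on day 3. The Cxcl12 ratio in these spots was 0.583 (0.505 to 0.669), 0.481 (0.357 to 0.636), 0.457 (0.390 to 0.532) and 0.486 (0.428 to 0.550) on days 0, 1, 3 and 7. In MSC-rich spots it was above 1 throughout, at 1.53 (1.39 to 1.68) on day 0, 1.81 (1.48 to 2.20) on day 1, 1.84 (1.73 to 1.96) on day 3 and 2.51 (2.36 to 2.67) on day 7. In spots rich in smooth muscle and pericyte markers, cells of the vessel wall, it was 1.90 (1.75 to 2.06) on day 0, 1.03 (0.95 to 1.11) on day 3 and 2.53 (2.38 to 2.68) on day 7. Endothelial-rich spots gave 1.76 (1.61 to 1.92), 2.12 (1.77 to 2.53), 1.31 (1.21 to 1.41) and 2.46 (2.32 to 2.61) on days 0, 1, 3 and 7. The enrichment of Cxcl12 around vessel markers was thus smallest on day 3, and a test of that difference between sections was not possible with 1 section per day.

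Cxcl14 was lowest on day 1 and highest on day 3. It had 8335 UMIs (190.0 CPM) on day 0, 1126 (67.1 CPM) on day 1, 24684 (439.9 CPM) on day 3 and 12675 (303 CPM) on day 7. Day 1 was 2.83-fold (2.66 to 3.02) below day 0, and day 3 was 6.55-fold (6.17 to 6.96) above day 1. Against day 0, day 3 was 2.32-fold (2.26 to 2.37) higher by CPM and at a log2 ratio of 0.66 under TMM factors, and day 7 was 1.59-fold (1.55 to 1.64) higher and at 0.07 under TMM factors. After thinning, a Cxcl14 UMI was found in 30.4% (28.4 to 32.4), 10.8% (9.58 to 12.3), 50.5% (48.7 to 52.3) and 41.7% (39.9 to 43.5) of spots on days 0, 1, 3 and 7. Without thinning it was 86.6%, 23.1%, 93.1% and 83.3%.

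Cxcl14 lay apart from macrophage markers on days 1 and 3. Its ratio in monocyte/macrophage-rich spots was 1.11 (1.04 to 1.19) on day 0, 0.383 (0.260 to 0.544) on day 1, 0.284 (0.268 to 0.301) on day 3 and 0.831 (0.788 to 0.876) on day 7. On days 1 and 3 it was the only member lower past 2-fold there, against 2.88% and 7.52% of genes. In spots rich in infiltrating monocyte markers it was likewise low on day 1, at 0.432 (0.290 to 0.620), and on day 3, at 0.358 (0.336 to 0.381), but on day 7 it was 1.78-fold (1.68 to 1.87) higher, and these spots then held more macrophage markers (3225 against 1994 CPM). Fibroblast matrix-rich spots (Col1a1, Col3a1, Dcn, Lum) differed by day, with 1.34 (1.26 to 1.44) on day 0, 3.49 (3.03 to 4.01) on day 1, 0.735 (0.706 to 0.765) on day 3 and 0.489 (0.453 to 0.527) on day 7. It was also low on day 7 in chondrogenic-rich spots, at 0.410 (0.375 to 0.447), and in regenerating muscle-rich spots, at 0.338 (0.315 to 0.363). MSC-rich spots gave 0.983 (0.944 to 1.02) on day 3 and 2.39 (2.29 to 2.50) on day 7. Adult myofibre-rich spots stayed within 2-fold of the rest, with intervals that excluded 1 in every section. The ratio was 0.91 (0.837 to 0.979), 1.37 (1.15 to 1.63), 1.15 (1.09 to 1.21) and 0.810 (0.754 to 0.870) on days 0, 1, 3 and 7.

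**Figure D4:**
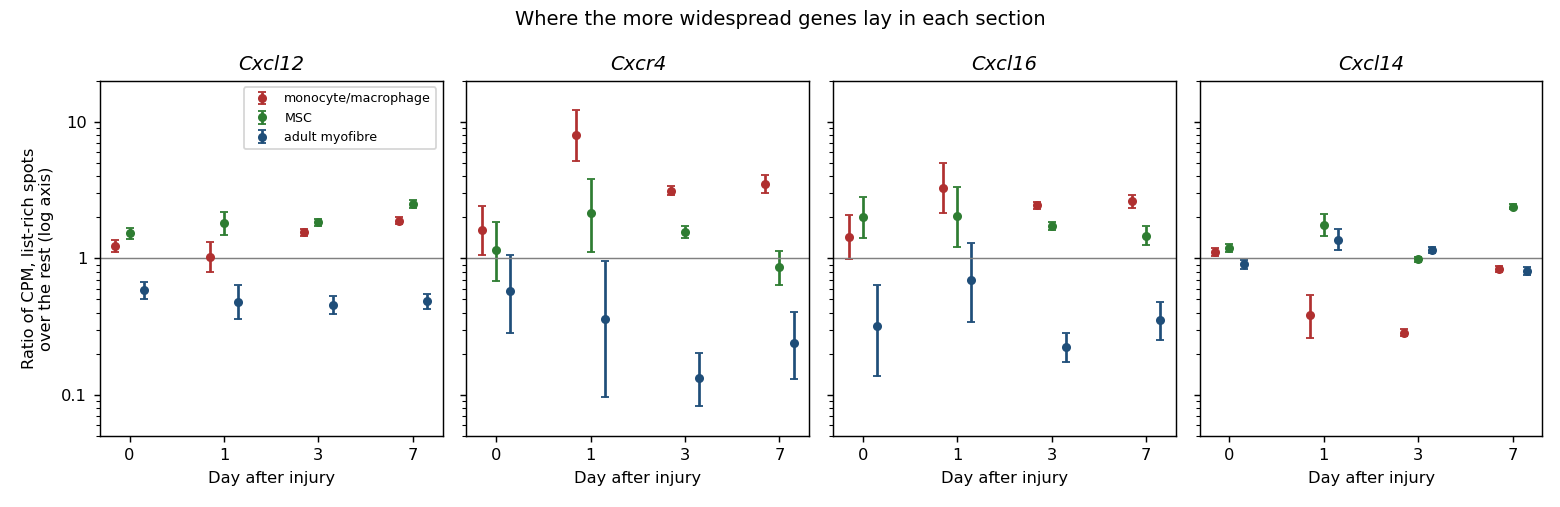
Ratio of CPM (log axis) in spots rich in monocyte/macrophage, MSC or adult myofibre markers over the other spots of the same section, for Cxcl12, Cxcr4, Cxcl16 and Cxcl14 on days 0, 1, 3 and 7; bars are 95% counting intervals and the grey line is a ratio of 1. Cxcr4 and Cxcl16 lie above 1 in monocyte/macrophage-rich spots on days 1, 3 and 7, where Cxcl14 lies below 1.

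Cxcl16 and Cxcr4 had the same order of days. Cxcl16, which is also a scavenger receptor for oxidised lipoprotein, had 258 UMIs (5.88 CPM) on day 0, 164 (9.77 CPM) on day 1, 5730 (102 CPM) on day 3 and 1445 (34.5 CPM) on day 7. Day 3 was highest, at 17.4-fold (15.3 to 19.7) above day 0, and day 7 was 2.96-fold (2.79 to 3.13) below day 3 and 5.87-fold (5.14 to 6.73) above day 0. Day 1 was 1.66-fold (1.36 to 2.03) above day 0. Cxcr4 had 200 UMIs (4.56 CPM) on day 0, 115 (6.85 CPM) on day 1, 2876 (51.3 CPM) on day 3 and 704 (16.8 CPM) on day 7. Day 3 was again highest, at 11.2-fold (9.74 to 13), day 7 at 3.69-fold (3.15 to 4.34) and day 1 at 1.5-fold (1.18 to 1.90) the day 0 level. After thinning, Cxcr4 was found in 0.888%, 1.81%, 7.19% and 2.30% of spots and Cxcl16 in 1.06%, 2.32%, 13.9% and 5.01% on days 0, 1, 3 and 7.

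Both lay in macrophage-rich spots. Cxcr4 was 8.03-fold (5.2 to 12.3) higher in monocyte/macrophage-rich spots on day 1, 3.14-fold (2.91 to 3.39) on day 3 and 3.52-fold (3.01 to 4.11) on day 7, against 1.63-fold (1.06 to 2.41) on day 0. Cxcl16 was at 1.45-fold (0.983 to 2.07) on day 0, 3.31-fold (2.14 to 4.98) on day 1, 2.45-fold (2.31 to 2.59) on day 3 and 2.63-fold (2.35 to 2.94) on day 7. Cxcr4 was 8.12-fold (5.19 to 12.5) higher on day 1 in spots rich in infiltrating monocyte markers (Ly6c2, Ccr2, Plac8, Chil3). In regenerating muscle-rich spots on day 7, which are rich in embryonic myosin and myogenic factors, Cxcr4 was 3.09-fold (2.64 to 3.60) and Cxcl16 2.20-fold (1.96 to 2.46) higher. These spots were also richer in macrophage markers (4355 against 1602 CPM) and deeper (median 23612 against 11838 UMIs), and the part of macrophage content was not tested. Adult myofibre-rich spots held little of either on day 3, at 0.133 (0.0821 to 0.203) for Cxcr4 and 0.223 (0.174 to 0.283) for Cxcl16. In these spots 7 of 10 members were lower past 2-fold, against 29.6% of genes. The monocyte/macrophage list itself was at 421, 1562, 7889 and 2084 CPM on days 0, 1, 3 and 7, with all 10 markers above day 0 in each injured section, and its part in the levels of Cxcl16 and Cxcr4 was not tested. Cxcr6, the receptor of Cxcl16, had 7, 18, 119 and 12 UMIs, and on day 3 was 13.3-fold (6.25 to 33.8) above day 0.

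Sharing of spots was measured as the number of thinned spots with a UMI of both genes over the number given by the product of the separate shares. Cxcl12 and Cxcr4 shared 54.9 spots on average on day 3, at 1.28 times the product, and 21.2 spots on day 7, at 1.34 times, with 3.00 and 7.35 spots on days 0 and 1, and in each section the counting interval of the shared spots included the product. Cxcl16 and Cxcr4 shared more than the product on day 3, at 1.72 times, with 1.73% of spots (1.29 to 2.25) holding both against 1.00% by the product. On day 7 they were at 1.91 times, from 6.50 spots, with an interval that included the product. Cxcl14 and Cxcr4 shared less on day 3, at 0.615 times, with 2.23% of spots (1.72 to 2.81) against 3.63%. On day 7 they were at 0.719 times, again with an interval that included the product. Cxcl12 and its scavenger Ackr3 stayed near the product in every section, between 1.03 and 1.14 times. Among ligands, Cxcl1 and Cxcl5 shared spots at 4.98 times the product on day 1 and 4.20 times on day 3, and Cxcl9 and Cxcl10 at 5.77 times on day 3 and 7.39 times on day 7, but each of these rests on fewer than 7 spots. Pairs of the ELR ligands with Cxcr2, and of Cxcl16 with Cxcr6, shared at most 2.25 spots in any section.

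The genes most alike to each member across spots were named from Pearson's r of log counts per 10000 UMIs, in the section where the member had its highest CPM. The r is a description over the spots of 1 section, which share a library, a depth and a tissue makeup. Cxcl5 on day 3 was most like Ccl2 (r = 0.41), Ccl7 (0.37), Timp1, Spp1 and Hspa5, over 3020 spots. Cxcl1 on day 3 was most like Cxcl5 (0.27), followed by Ptx3, Ccl7, Tnfaip6 and Il6. The chemokines Ccl2 and Ccl7 draw monocytes. Cxcl3 on day 1 was most like Arg1 (0.30), an enzyme of macrophages, and Ppbp (0.23), over 2154 spots, while for Cxcl2 on day 1 the highest r was 0.16, for Slc29a3. Cxcl10 on day 3 was most like the interferon-stimulated genes Rsad2 (0.47), Ifit2 (0.45), Ifit1 (0.44), Ifit3 (0.42) and Isg15 (0.39). Cxcl9 on day 7 was most like Cxcl10 (0.28), then Ifit3, Irf7, Ccl5 and Isg15, over 2948 spots.

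Of the widespread members, Cxcl14 on day 3 was most like the metallothioneins Mt2 (0.70) and Mt1 (0.67), which bind metals, and then the myofibre genes Myh4 (0.55), Pvalb (0.54) and Ckm (0.54). With the share of adult myofibre UMIs held fixed, r stayed at 0.62 for Mt2 and was 0.37 for Ckm. Cxcl16 and Cxcr4 on day 3 had the macrophage genes Apoe (0.63 and 0.56), Lyz2 (0.60 and 0.56), Ctss (0.58 and 0.56) and Psap (0.56 and 0.56) in common. With the myofibre share held fixed these values were between 0.22 and 0.35. Cxcl12 on day 7 was most like Igfbp4 (0.37), Igfbp7 (0.34) and Col3a1 (0.34), and with the myofibre share fixed r was 0.22, 0.21 and 0.13.

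Of 18 other genes of the CXC axis on the list used, 17 were among the features, and Cxcl11 was not analysed here. On day 1, 6 of 13 with enough UMIs were higher than day 0 past 2-fold (Pf4, Ppbp, Cxcl13, Cxcr2, Cxcr6 and Mmp9), against 17.4% of all genes, and 3 were lower (Ackr2, Ackr3 and Dpp4), against 11.4%. On day 3, 8 of 13 were higher (Pf4, Ppbp, Cxcl13, Cxcr2, Cxcr3, Cxcr6, Adam10 and Adam17), against 33.3%. Only 1 of the 13 was lower (Ackr2), a share near the 8.26% of all genes. On day 7, 4 of 12 were higher (Ppbp, Cxcl13, Cxcr3 and Mmp9), a share near the 32.7% of all genes, and none was lower, against 2.13%. Ackr3, the scavenger of Cxcl12, was at 62.9, 18.1, 43.1 and 70.7 CPM on days 0, 1, 3 and 7. It was thus lowest on day 1, as Cxcl12 and Cxcl14 were, at 0.287 (0.254 to 0.323) of day 0. From day 0 to day 1 the fibroblast matrix list went from 5349 to 607 CPM, the smooth muscle and pericyte list from 704 to 273 and the endothelial list from 384 to 229, while the MSC list went from 409 to 617. Mitochondrial genes took 17.8% of UMIs on day 1 against 11.7% to 13.5% in the other sections. The part of these in the day 1 levels of Cxcl12, Cxcl14 and Ackr3 was not tested. Dpp4, a protease that inactivates Cxcl12, was at 0.370 (0.247 to 0.538) of day 0 on day 1. Adam10 and Adam17, which shed Cxcl16 from the cell surface, were 2.14-fold (1.99 to 2.30) and 2.17-fold (2.0 to 2.36) above day 0 on day 3, and under 2-fold under TMM factors (log2 ratios of 0.55 and 0.57). Mmp9, a neutrophil and macrophage protease, was at 4.83, 18.4, 3.67 and 11.9 CPM, and its day 7 ratio to day 0 was under 2-fold under TMM factors (log2 ratio of 0.69).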

How the data were processed

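Spatial transcriptomes of 4 tibial muscle sections, 1 per day, were analysed. Deposited were counts of UMIs for each gene and spot, without normalization, made by the authors with Space Ranger (version 1.2.0 in the file headers, mm10 in the submitters' processing notes). All 10835 spots were used for section sums, whose totals ran from 16777832 to 56113066 counts. CPM has exact Poisson intervals, ratios exact conditional binomial intervals, and shares Clopper-Pearson intervals from 20 seeded thinnings to 2000 UMIs, all at 95%. Spots with under 2000 UMIs (17, 513, 9 and 84) were left out within sections. A ratio against 0 UMIs is a bound from 3 UMIs over the section. List-rich spots were the top 10% by list share, with at least 20 spots, over 22 marker lists. The 5 genes of highest r per member, with a UMI in at least 5% of spots, and all members and axis genes, were named. Members, lists and settings were chosen with earlier results of these data known. No doublet caller and no deconvolution were run, since spots hold several cells, and spot positions were not used. The authors' counting of near-identical genes is not given in the sources used here. Factors came from edgeR 4.0.16 and DESeq2 1.42.0 (R 4.3.3), and the rest from SciPy 1.17.1, NumPy 2.4.6, pandas 2.3.3 and matplotlib 3.10.9 under Python 3.11.15. The ratios were tested on simulated data. Other settings tried were 3 scalings, other folds, shares of spots, depths and filters, and Spearman or partial correlation. Thinning all sections to the day 1 total, and counting calls in spots of at least 2000 UMIs, were added after seeing the data.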

Additional observations from a re-analysis of the deposited data

Results flagged for a closer look

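The 10 members were compared across days in spots rich in neutrophil, monocyte/macrophage, NF-kB early response, interferon response, MSC, endothelial and adult myofibre markers, 7 of the 22 lists. In 9 cases the ratio lay wholly above 1 in some sections and wholly below 1 in others, by counting intervals. Over all 22 lists there were 33 such cases, 13 of them of Cxcl14, among them its ratios in fibroblast matrix-rich spots. A case needs intervals that exclude 1, so the counts of cases also follow the UMIs of a gene. Cxcl14 had the most UMIs of the members in every section. The share of all genes with such cases was not computed. These differences between sections were not tested, since there was 1 section per day. In endothelial-rich spots the highest ratios came at day 0 or 1 and the lowest at day 3: for Cxcl10 4.75 (day 0, from 4 UMIs in those spots) and 0.378, for Cxcl9 6.39 (day 1, from 8 UMIs) and 0.585, for Cxcr4 2.88 (day 1) and 0.702, and for Cxcl16 2.62 (day 1) and 0.724.

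In the 7 lists, 4 of the 9 cases were of Cxcl14. Its ratio was 1.11 in monocyte/macrophage-rich spots at day 0 and 0.284 at day 3, and 1.15 in interferon-rich spots at day 0 and 0.406 at day 3. In neutrophil-rich spots it was 0.696 at day 1 and 1.55 at day 7, and in adult myofibre-rich spots 1.37 at day 1 and 0.810 at day 7. Cxcl10 in neutrophil-rich spots was at 1.94 at day 1 and 0.689 at day 7.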

How the results depend on the processing

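Each section stands alone, so depth and counting error set the precision, and Cxcl2 and Cxcl3 are limited by counts. No paired analysis was possible because each day has 1 section. At 4-fold in place of 2-fold, no member in place of 2 was lower at day 1 and 3 in place of 6 were higher at day 7. The other settings kept each count of members past 2-fold against day 0 within 1.5 times. From day 1 to day 7, Cxcl9, Cxcl14 and Cxcl16 were higher past 2-fold by CPM and under TMM and size factors. Cxcl12 and Cxcr4 were so by CPM but not under TMM or size factors. Cxcl1, Cxcl2, Cxcl3 and Cxcl5 were lower past 2-fold by CPM and under both factors. Of 199 alternative log2 ratios to day 0, 141 stayed within counting error, 52 moved and 6 turned. Those 6 were Cxcl9 at day 3 (0.54 by CPM, -0.014 with TMM and -0.024 with size factors), Cxcl12 at day 3 (0.47, -0.080 and -0.090) and Cxcl2 at day 7 (0.39, -0.22 and -0.25). Of 937 alternative ratios in list-rich spots, 757 stayed, 177 moved and 3 turned. With the top 5% of spots Cxcl14 at day 3 in adult myofibre-rich spots went from 1.15 to 0.982 and Cxcl1 at day 7 in monocyte/macrophage-rich spots from 2.67 to 0.810. With the top 25%, Cxcl10 at day 7 in neutrophil-rich spots went from 0.689 to 3.07. Over the 4 sections, values lower past 2-fold went from 0 to 2 in neutrophil-rich, from 1 to 2 in interferon-rich and from 1 to 2 in endothelial-rich spots with the top 5%, and from 1 to 2 in endothelial-rich spots with all spots. With the top 25%, values lower in monocyte/macrophage-rich spots went from 2 to 1, and values higher in endothelial-rich spots from 10 to 5. Shares of all genes were not computed under these other settings, so these counts of values have no such share beside them. In the main setting 19.3% of genes were higher in endothelial-rich spots on day 1 and 4.76% on day 3. With Spearman's rho, 27 of the 50 most alike genes were among the first 5. The cause was not tested.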
